A study of Mus musculus with 9 samples.

Results

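The mRNAs of 10 genes that growing axons and migrating newborn neurons use to steer and to stick were followed across 3 groups of sorted mouse brain cells. They were the 5 collapsin response mediator genes (Crmp1, Dpysl2, Dpysl3, Dpysl4 and Dpysl5), the membrane-bound kinase substrates Gap43 and Marcksl1, the surface proteins Ncam1 and Cd24a, and the secreted protein Igfbpl1. The set was chosen by name, from knowledge of growth cones and newborn neurons, and with earlier results of these data known. Every array probe that carries one of these names, or Mlp as an older name of Marcksl1, was taken. This gave 10 genes with 21 probes, out of 27666 genes and clones with 41174 probes on the array. A probe entered the tests if 3 or more of the 9 arrays had it well above background. All 10 genes and all 21 probes did, among 24890 genes and 36779 probes.

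The cells came from the brains of 2 transgenic reporter mouse lines aged 6 to 8 weeks, with tissue of 10 dissections pooled for each experiment. DCX-DsRed mice make a red fluorescent protein under the promoter of Dcx, a microtubule-associated protein gene of newborn neurons, and DCX-DsRed cells of the hippocampus were sorted from them. Sox2-GFP mice carry green fluorescent protein driven by the Sox2 promoter (Sox2 is a transcription factor gene of neural stem cells and astrocytes), and Sox2-GFP cells were sorted from the hippocampus and from the SVZ, the subventricular zone along the lateral ventricle. A reporter marks every cell in which its promoter is active or whose fluorescent protein persists, so neither sort is limited to 1 cell type. Each group had 3 arrays, named A, B and C, and each array carried amplified RNA of 1000 cells read in 1 colour (Cy3). Nothing in the labels states that the 3 samples of a group were separate pools of mice. The p-values therefore measure the spread between these samples alone, which may be technical.

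Growth cones are the motile tips of growing axons. CRMPs are cytosolic phosphoproteins that carry the repulsive signal of semaphorins to the cytoskeleton, and they bind tubulin and change how microtubules grow. GAP43 and MARCKS-like protein sit at the inner face of the membrane, bind calmodulin and acidic phospholipids, and are released or modified when protein kinase C phosphorylates them. NCAM holds cells together by homophilic binding, and its polysialylated form loosens that contact in migrating neuroblasts of the SVZ and in young granule cells of the dentate gyrus. CD24 is a small glycosylphosphatidylinositol-anchored glycoprotein of neuroblasts, and ciliated ependymal cells carry it too.

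Levels are on a log2 scale with 0 at each array's 75th percentile of signal, so 0 is a fairly bright probe, a difference of 1 is a factor of 2, and a probe's level says nothing of another probe's. Between 80.2% and 88.3% of probes were well above background per array and no spot was saturated. The array least like the rest was hippocampal Sox2-GFP C. Across genes it correlated at 0.82 and 0.78 with A and B of its group, which correlated at 0.92 with each other, and at 0.70 to 0.73 with the arrays of the other groups. The mRNA of the reporter genes does not check the labels. Dcx read -1.26, -0.76 and 1.30 on DCX-DsRed A, B and C, -0.17, -0.75 and -2.85 on the hippocampal Sox2-GFP arrays, and 2.60, 3.07 and -2.34 on the SVZ arrays. Sox2 lay between 1.33 and 1.74 in DCX-DsRed cells, between -0.92 and 0.96 in hippocampal Sox2-GFP cells and between 0.94 and 2.30 in SVZ cells. Of 21 listed genes of immature neurons, 15 were well above background on all 9 arrays, Tbr1 on 4, and Neurod1, Neurod6, Dlx1, Dlx2 and Sp8 did not pass the filter. Medians of the measured genes of that list were -0.63, -0.31 and -0.05 on DCX-DsRed A, B and C. They were -0.50, -0.40 and -2.04 on hippocampal Sox2-GFP A, B and C, and 0.94, 0.97 and -0.74 on SVZ A, B and C. Genes of myelinating oligodendrocytes were bright in DCX-DsRed cells, with list medians of 4.10 to 4.78. In such bulk samples, fewer cells of a type and less RNA per cell cannot be told apart.

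RefSeq promoter windows (assembly GRCm38.p6) were at hand for 3 of the 10 genes, Crmp1, Dpysl5 and Marcksl1, in 4 windows of 250 bases that end at the transcription start. All 3 genes are shown, whatever their array values. Crmp1 and Dpysl5 are members of one family. Capitals mark E boxes (CANNTG, bound by basic helix-loop-helix factors such as the proneural ones) and GC boxes (GGGCGG, bound by SP factors), searched on both strands, with neighbouring GC boxes allowed to overlap.
Crmp1, chr5:37241808-37242057, plus strand: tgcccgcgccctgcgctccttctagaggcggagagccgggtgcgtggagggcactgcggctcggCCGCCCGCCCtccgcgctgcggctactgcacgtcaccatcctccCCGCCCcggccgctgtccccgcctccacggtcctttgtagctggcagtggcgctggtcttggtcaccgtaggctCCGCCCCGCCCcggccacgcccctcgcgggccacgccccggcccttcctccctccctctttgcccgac
Dpysl5, chr5:30711314-30711563, plus strand: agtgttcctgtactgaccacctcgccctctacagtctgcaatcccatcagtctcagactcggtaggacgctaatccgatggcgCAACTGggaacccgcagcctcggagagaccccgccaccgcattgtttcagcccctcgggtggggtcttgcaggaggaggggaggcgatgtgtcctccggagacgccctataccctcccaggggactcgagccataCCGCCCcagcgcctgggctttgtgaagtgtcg
Marcksl1, chr4:129513331-129513580, plus strand: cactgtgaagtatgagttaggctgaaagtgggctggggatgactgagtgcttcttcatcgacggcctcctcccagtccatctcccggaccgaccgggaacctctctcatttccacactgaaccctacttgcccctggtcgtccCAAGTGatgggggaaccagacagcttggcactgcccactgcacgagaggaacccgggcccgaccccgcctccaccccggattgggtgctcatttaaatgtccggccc
The Crmp1 window shown held 5 GC boxes, no E box and 75.6% G and C, more than 96.4% of all 32851 windows. The second Crmp1 window, chr5:37245514-37245763 and not printed, held 1 E box (CACCTG, 202 bases before its start) and 2 GC boxes at 59.6% G and C. The Dpysl5 window held 1 E box (CAACTG, its first base 167 bases before the start) and 1 GC box at 62.8% G and C. The Marcksl1 window held 1 E box (CAAGTG, 107 bases before the start) and no GC box at 60.4% G and C. Among all windows, 66.2% held an E box and 32.7% a GC box. The Dpysl5 window alone of these 4 held ACAAT, the core letters of SOX sites, on the reverse strand, which 27.7% of all windows hold. None of the 4 held TATAAA (12.4% of all windows), TGACGTCA (1.5%), or the E boxes CAGCTG (13.0%) and CAGATG (14.4%). These matches describe letters in a window and were not tied to the array values.

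**Figure D1:**
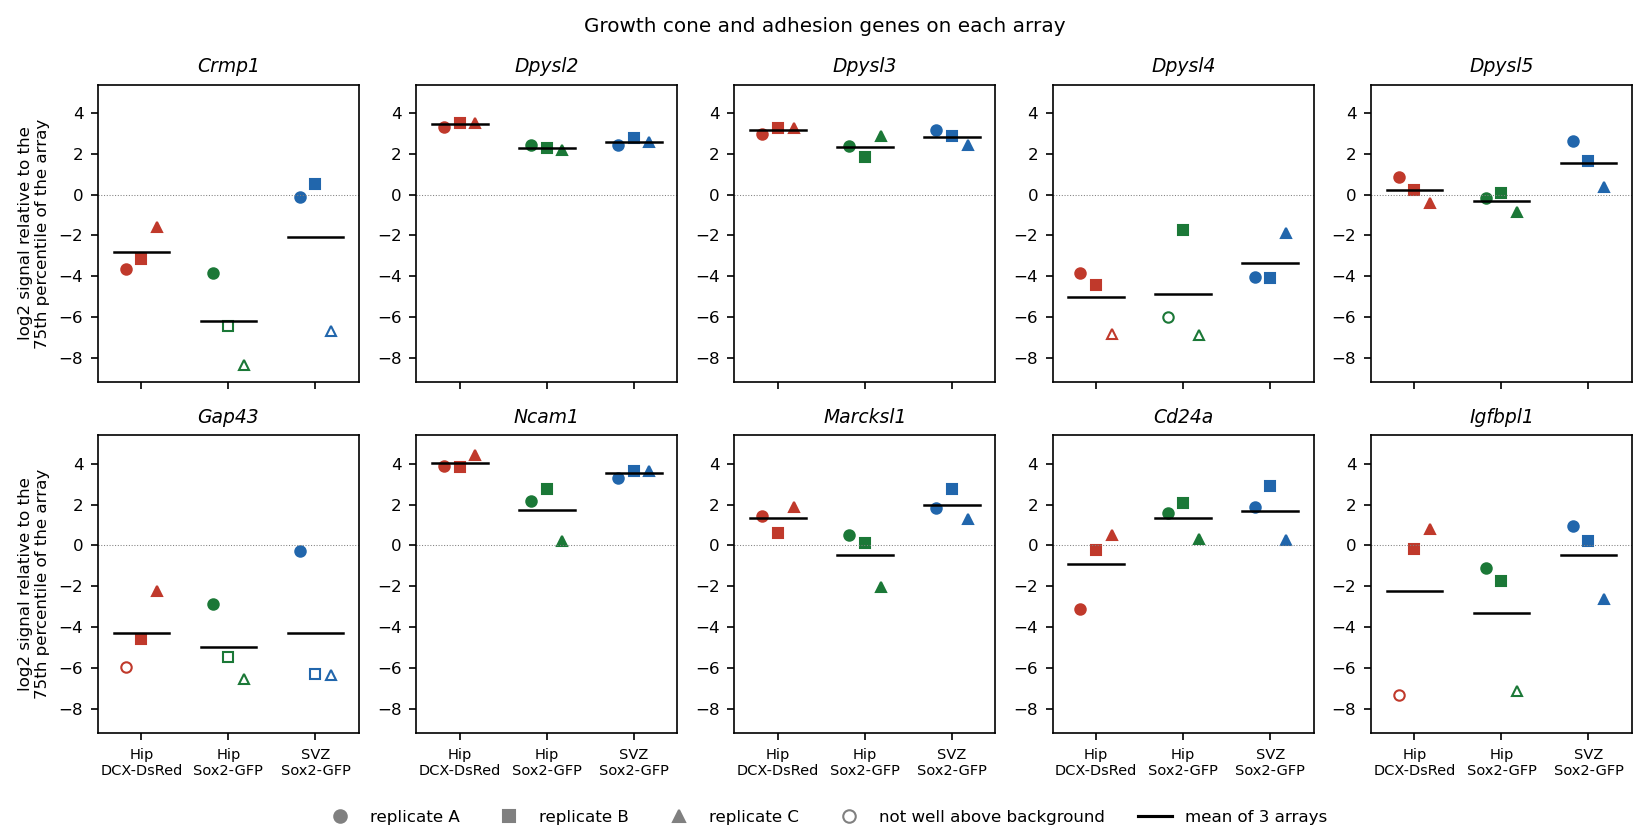
Level of each of the 10 genes on each array, by the probe that stands for the gene. The y axis is log2 signal with 0 at each array's 75th percentile, marker shape gives the replicate, open markers are not well above background, and black lines are means of 3 arrays. Dpysl2, Dpysl3 and Ncam1 sit high with little spread in DCX-DsRed cells, while Crmp1, Gap43 and Igfbpl1 spread over 6.29 to 8.86 log2 units.

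The groups were compared in pairs with limma's moderated test over all genes. The first set hippocampal Sox2-GFP against hippocampal DCX-DsRed cells, the reporter meant for stem cells against the one meant for their neuronal progeny. The second set SVZ Sox2-GFP against hippocampal Sox2-GFP cells, the same reporter in 2 regions. The third set SVZ Sox2-GFP against hippocampal DCX-DsRed cells. Any pair of them shares a group of arrays, so they are not independent of each other. No gene of the set passed an adjusted p of 0.05 in any of them by the probe that stands for the gene, where 3.17%, 0.398% and 1.55% of all genes passed. At an unadjusted p under 0.05 the counts were 3, 3 and 2 of 10 genes, against 16.9%, 10.8% and 13.7% of all genes. The smallest adjusted p over the set was 0.06712, 0.275 and 0.2113.

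In hippocampal Sox2-GFP minus DCX-DsRed cells, 8 of the 10 differences were negative, with a median of -0.96 against -0.08 over all genes. For 5 of the 10 genes (Crmp1, Dpysl2, Dpysl3, Ncam1 and Marcksl1) each Sox2-GFP array lay below each DCX-DsRed array, and 13.3% of all genes did so. In SVZ minus hippocampal Sox2-GFP cells, all 10 differences were positive, with a median of 1.68 against 0.07, and 4 genes (Dpysl2, Dpysl5, Ncam1 and Marcksl1) did not overlap with the SVZ arrays on top, as for 8.83% of all genes. In SVZ Sox2-GFP minus DCX-DsRed cells, 6 differences were positive and 4 negative, and 2 genes (Dpysl2 and Ncam1) did not overlap, lower in the SVZ, against 10.4% of all genes.

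Those counts moved when the C arrays were left out. Without hippocampal Sox2-GFP replicate C the first comparison kept the same 5 genes below the DCX-DsRed arrays, against 16.8% of all genes. Cd24a then lay wholly above, as did 21.7% of all genes, and 4 of 10 differences were positive, with a median of -0.65. In the second comparison the median was then 0.84, 8 of 10 differences were positive and 5 genes did not overlap, with Dpysl3 added, against 11.2% of all genes. Without SVZ replicate C alone, Crmp1, Dpysl3 and Igfbpl1 joined the genes that did not overlap in the second comparison, 7 in all, against 15.7% of all genes. In the third comparison, Crmp1, Dpysl5 and Cd24a then lay wholly above the DCX-DsRed arrays, against 15.7% of all genes. Dpysl2 and Ncam1 still lay wholly below, as did 14.2% of all genes. Without both C arrays, 9 of 10 differences in the second comparison were positive, with a median of 0.96. Hippocampal Sox2-GFP C was the lowest of its group for 9 of the 10 genes and the lowest of all 9 arrays for 7. SVZ replicate C was the lowest of its group for 7, and DCX-DsRed replicate C the highest of its group for 8.

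**Figure D2:**
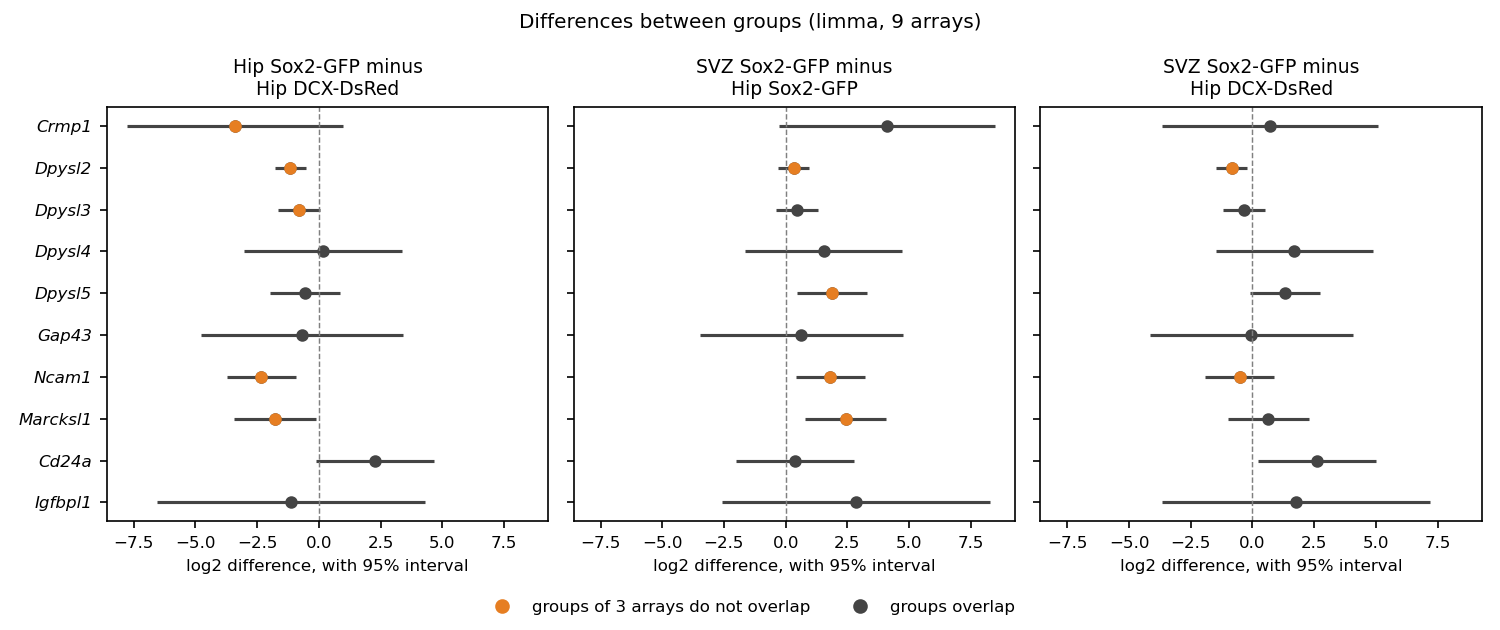
Difference of each gene in the 3 comparisons, in log2 units with the 95% interval from limma over 9 arrays. Orange points are genes whose 3 arrays in one group do not overlap with the 3 in the other. In the left panel 5 orange points lie below 0, in the middle panel 4 lie above 0, and in the right panel 2 lie below 0.

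Among the CRMPs, Dpysl2 (CRMP2, the family member best known for promoting axon outgrowth through tubulin binding) had the tightest replicates. By its brighter probe it read 3.31, 3.51 and 3.51 on DCX-DsRed A, B and C, 2.42, 2.27 and 2.17 on hippocampal Sox2-GFP A, B and C, and 2.43, 2.79 and 2.59 on SVZ A, B and C. The DCX-DsRed arrays were the highest, the SVZ arrays came next and the hippocampal Sox2-GFP arrays were lowest, with no overlap between any of the groups, though only narrowly between the Sox2-GFP groups. Hippocampal Sox2-GFP differed from DCX-DsRed cells by -1.16 (SE 0.28, 95% interval -1.79 to -0.53), a 2.23-fold difference whose limma adjusted p was 0.06712. SVZ differed from DCX-DsRed cells by -0.84 (SE 0.28, adjusted p = 0.2113), and from hippocampal Sox2-GFP cells by 0.32 (SE 0.28, adjusted p = 0.7213).

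The dimmer Dpysl2 probe gave the one call of the set. It read -0.23, -0.31 and -0.33 in DCX-DsRed cells, -3.09, -2.76 and -3.51 in hippocampal Sox2-GFP cells and -1.39, -2.72 and -3.15 in SVZ cells. With each probe tested on its own, hippocampal Sox2-GFP cells were 7.102-fold lower than DCX-DsRed cells at this probe (log2 difference -2.83, SE 0.49, limma adjusted p = 0.02384), where 3.13% of all probes were called. The call was lost when any 1 of the 6 arrays of these groups was left out (adjusted p 0.05059 to 0.09124, difference -3.01 to -2.63) and with slide as a block (-2.69, adjusted p = 0.05447). At this probe SVZ differed from DCX-DsRed cells by -2.13 (adjusted p = 0.08863), and this was called without SVZ A (-2.64, adjusted p = 0.04039). The probes therefore gave the same order of DCX-DsRed over hippocampal Sox2-GFP cells at different sizes, and the mean of both gave -1.99 (adjusted p = 0.01539).

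Dpysl3 (CRMP4, a CRMP of postmitotic migrating neurons that also bundles actin) read 2.99, 3.25 and 3.26 in DCX-DsRed cells. It stood at 2.37, 1.83 and 2.88 in hippocampal Sox2-GFP cells and 3.15, 2.89 and 2.44 in SVZ cells. The hippocampal groups did not overlap, narrowly, and the SVZ arrays spanned the gap between them. Hippocampal Sox2-GFP minus DCX-DsRed was -0.81 (SE 0.37, adjusted p = 0.3167), and the other comparisons gave 0.46 (adjusted p = 0.6906) for SVZ minus hippocampal Sox2-GFP and -0.34 (adjusted p = 0.7712) for SVZ minus DCX-DsRed.

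Crmp1 varied more than nearly any gene. Its range over the 9 arrays was 8.86 log2 units, wider than 99.2% of all genes, whose median range was 2.44. It read -3.62, -3.15 and -1.60 in DCX-DsRed cells. On hippocampal Sox2-GFP arrays it read -3.82, -6.42 and -8.35, with B and C not well above background. In SVZ cells it read -0.10 and 0.51 on A and B but -6.66, not well above background, on C. The 2 brightest arrays and 1 of the 3 dimmest were thus of the same SVZ group. Hippocampal Sox2-GFP minus DCX-DsRed was -3.40 (SE 1.91, 95% interval -7.78 to 0.97, adjusted p = 0.4181), SVZ minus hippocampal Sox2-GFP was 4.11 (SE 1.91, adjusted p = 0.4898) and SVZ minus DCX-DsRed was 0.71 (adjusted p = 0.9271). Without SVZ replicate C the SVZ difference from DCX-DsRed cells was 3.0 (adjusted p = 0.4077).

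Dpysl5 (CRMP5, which curbs neurite outgrowth and is made in newborn neurons of the adult brain) had its highest values in the SVZ. By its brighter probe it read 2.65, 1.64 and 0.37 in SVZ cells, 0.88, 0.24 and -0.40 in DCX-DsRed cells and -0.16, 0.06 and -0.85 in hippocampal Sox2-GFP cells. Each SVZ array lay above each hippocampal Sox2-GFP array, while DCX-DsRed overlapped with both. SVZ minus hippocampal Sox2-GFP was 1.87 (SE 0.62, adjusted p = 0.3298), SVZ minus DCX-DsRed was 1.31 (adjusted p = 0.4028) and hippocampal Sox2-GFP minus DCX-DsRed was -0.56 (adjusted p = 0.7004). The dimmer probe split the SVZ arrays further, with 1.47 and 1.06 on A and B and -2.69 on C, against -4.03 to -2.32 in hippocampal Sox2-GFP and -2.08 to -1.79 in DCX-DsRed cells. With SVZ C left out, this probe's difference between the regions was called (4.28, SE 0.56, limma adjusted p = 0.04045).

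Dpysl4 (CRMP3, a member strong in the cerebellum and hippocampus) was near background. It read -3.84, -4.45 and -6.81 in DCX-DsRed cells, -5.98, -1.75 and -6.88 in hippocampal Sox2-GFP cells and -4.04, -4.09 and -1.87 in SVZ cells. DCX-DsRed C and hippocampal Sox2-GFP A and C were not well above background, and all groups overlapped. The difference of hippocampal Sox2-GFP minus DCX-DsRed cells was 0.16, SVZ minus hippocampal Sox2-GFP 1.54 and SVZ minus DCX-DsRed 1.70 (SE 1.39 each, adjusted p = 0.97, 0.7319 and 0.6836).

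Gap43, the classical growth cone protein, was well above background on only 4 of the 9 arrays. It read -5.98, -4.59 and -2.26 in DCX-DsRed cells, -2.86, -5.46 and -6.56 in hippocampal Sox2-GFP cells and -0.28, -6.30 and -6.38 in SVZ cells. The arrays above background were DCX-DsRed B and C, hippocampal Sox2-GFP A and SVZ A, at least 1 in every group. Hippocampal Sox2-GFP minus DCX-DsRed was -0.68, SVZ minus hippocampal Sox2-GFP 0.64 and SVZ minus DCX-DsRed -0.04 (SE 1.79 each, adjusted p = 0.8887, 0.9239 and 0.9965). No order of the groups could be read from this gene.

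Marcksl1, the MARCKS-like substrate of protein kinase C, was measured clearly on every array. It read 1.83, 2.74 and 1.31 in SVZ cells, 1.43, 0.62 and 1.89 in DCX-DsRed cells and 0.50, 0.13 and -2.03 in hippocampal Sox2-GFP cells. The hippocampal Sox2-GFP arrays were the lowest 3 and the other groups overlapped. SVZ minus hippocampal Sox2-GFP was 2.43 (SE 0.72, adjusted p = 0.275), hippocampal Sox2-GFP minus DCX-DsRed was -1.78 (SE 0.72, adjusted p = 0.2585) and SVZ minus DCX-DsRed was 0.64 (adjusted p = 0.784). Without hippocampal Sox2-GFP C these were 1.65, -1.0 and 0.64. Its other probe read -1.48, -0.04 and -5.85 in hippocampal Sox2-GFP cells against 0.94, 0.00 and 1.53 in DCX-DsRed and 1.66, 2.24 and 1.12 in SVZ cells, the same order of groups.

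Ncam1 was covered by 8 probes, which can be laid out from the 5′ to the 3′ end of the gene. The probe that stands for it, the second from the 5′ end, read 3.89, 3.85 and 4.42 in DCX-DsRed cells, 2.19, 2.74 and 0.22 in hippocampal Sox2-GFP cells and 3.30, 3.64 and 3.65 in SVZ cells. At this probe the groups did not overlap in any pair, with DCX-DsRed on top and hippocampal Sox2-GFP lowest. Hippocampal Sox2-GFP minus DCX-DsRed was -2.34 (SE 0.61, 5.047-fold, adjusted p = 0.08855), SVZ minus hippocampal Sox2-GFP was 1.81 (adjusted p = 0.3412) and SVZ minus DCX-DsRed was -0.52 (adjusted p = 0.7949). Without hippocampal Sox2-GFP C the first was -1.59 (adjusted p = 0.06537) and the second 1.06 (adjusted p = 0.4028).

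With slide as a block, Ncam1 and Marcksl1 were called in both comparisons with hippocampal Sox2-GFP cells, where that fit called 2025 and 2129 of all 24890 genes. Slide 2 held only hippocampal Sox2-GFP A and B, so in that fit the group rests on replicate C. Hippocampal Sox2-GFP minus DCX-DsRed was then -4.13 for Ncam1 (adjusted p = 0.006323) and -3.69 for Marcksl1 (adjusted p = 0.03897). SVZ minus hippocampal Sox2-GFP was 3.46 for Ncam1 (adjusted p = 0.007723) and 4.16 for Marcksl1 (adjusted p = 0.02309). Within slide 3, which holds hippocampal Sox2-GFP C, the same differences were -4.20, -3.92, 3.42 and 4.05.

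**Figure D3:**
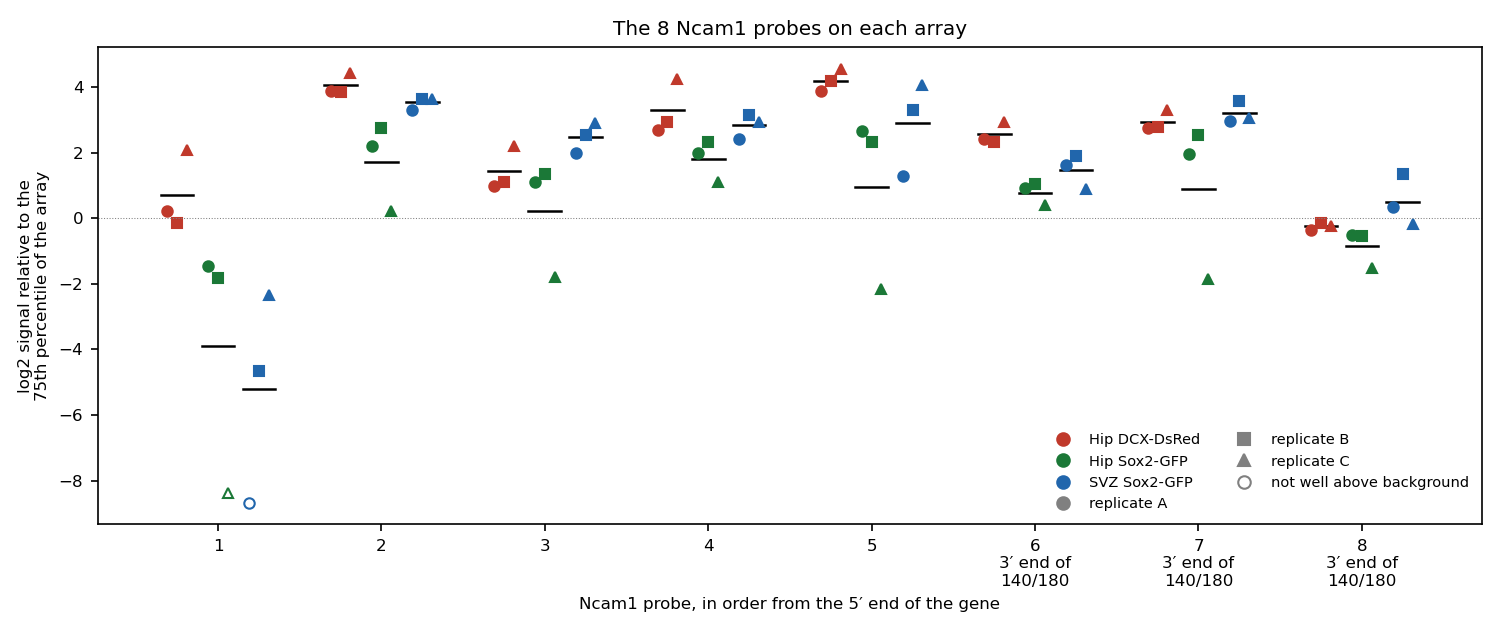
The 8 Ncam1 probes in order from the 5′ end of the gene, on each array. The y axis is log2 signal with 0 at each array's 75th percentile, colour gives the group, shape the replicate, open markers are not well above background, and black lines are means of 3 arrays. Hippocampal Sox2-GFP means lie below DCX-DsRed means at all 8 probes, and SVZ means lie above DCX-DsRed means at probes 3, 7 and 8.

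All 8 probes gave a negative difference of hippocampal Sox2-GFP from DCX-DsRed cells, from -4.61 to -0.61, and none was called (adjusted p from 0.05692, each probe tested on its own). The smallest p was at the sixth probe, one of the 3 whose sequence record is the 3′ end shared by the large transmembrane isoforms. It read 2.42, 2.31 and 2.93 in DCX-DsRed cells and 0.91, 1.03 and 0.41 in hippocampal Sox2-GFP cells (difference -1.77, SE 0.40). With normexp background correction it was called (-1.78, adjusted p = 0.03107). With slide as a block, hippocampal Sox2-GFP rests on replicate C. Its difference from DCX-DsRed cells was then -11.51 to -2.88 at the probes other than the sixth and the eighth. All 8 probes read the same arrays, so they do not repeat the measurement on other samples. SVZ minus DCX-DsRed differences changed sign along the gene, negative at 5 probes and positive at 3. The first probe, designed from an unnamed cDNA clone, gave -5.94 (SE 2.10, adjusted p = 0.2536), with SVZ A at -8.67 and not well above background. The third, designed from a record that spans the small alternative exon pi, gave 1.05 (SE 0.82, adjusted p = 0.6647), with SVZ arrays at 1.99, 2.54 and 2.90 and DCX-DsRed arrays at 0.99, 1.09 and 2.21. None of these SVZ differences was called. With slide as a block that of the first probe was (-7.14, adjusted p = 0.02589). Whether isoforms differ was not tested.

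Cd24a, the neuroblast and ependymal surface glycoprotein, went its own way. It read -3.11, -0.23 and 0.52 in DCX-DsRed cells, 1.60, 2.07 and 0.30 in hippocampal Sox2-GFP cells and 1.86, 2.92 and 0.26 in SVZ cells. DCX-DsRed A was the lowest array by a wide margin, and all groups overlapped. Hippocampal Sox2-GFP minus DCX-DsRed was 2.26 (SE 1.04, adjusted p = 0.322) and SVZ minus DCX-DsRed was 2.62 (SE 1.04, adjusted p = 0.3117). SVZ minus hippocampal Sox2-GFP was 0.36 (adjusted p = 0.9286). By the probes that stand for the genes, only Cd24a and Dpysl4 had positive differences from DCX-DsRed cells in both Sox2-GFP groups. The dimmer Igfbpl1 probe also did, at 0.17 in the hippocampus and 2.59 in the SVZ. Genes of ciliated ependymal cells, which also make Cd24a, had list medians of -3.07 to -1.93 over DCX-DsRed arrays, 1.05 to 1.71 over hippocampal Sox2-GFP arrays and -2.10 to -0.33 over SVZ arrays. Of 13 such genes, 6 rose in hippocampal Sox2-GFP against DCX-DsRed cells and 0 fell, where 1.74% of all genes rose. Their part in the Cd24a values was not tested.

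Igfbpl1, a secreted relative of the insulin-like growth factor binding proteins found in neuroblasts, had the next widest range after Crmp1, at 8.30 log2 units. By its brighter probe it read 0.96, 0.20 and -2.61 in SVZ cells, -7.34, -0.16 and 0.79 in DCX-DsRed cells and -1.12, -1.77 and -7.14 in hippocampal Sox2-GFP cells. DCX-DsRed A and hippocampal Sox2-GFP C were not well above background. The difference of hippocampal Sox2-GFP minus DCX-DsRed cells was -1.11, SVZ minus hippocampal Sox2-GFP 2.86 and SVZ minus DCX-DsRed 1.75 (SE 2.37 each, adjusted p = 0.8594, 0.7031 and 0.8285). Its dimmer probe placed DCX-DsRed A at -4.02, above DCX-DsRed C at -6.01, so the array that is lowest in that group depended on the probe.

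The SVZ arrays varied together for several of these genes. On SVZ A and B against C, Crmp1 stood at -0.10 and 0.51 against -6.66, Dpysl5 at 2.65 and 1.64 against 0.37, Igfbpl1 at 0.96 and 0.20 against -2.61, and Cd24a at 1.86 and 2.92 against 0.26. Dcx stood at 2.60 and 3.07 against -2.34 on the same arrays, and the list of immature neuron genes had medians of 0.94 and 0.97 against -0.74. A low C was not particular to that list. Medians of mature neuron genes stood at -0.28 and -0.82 against -1.62, and those of myelin genes at 1.22 and 1.36 against -0.09. Growth cone cytoskeleton medians were 1.70 and 1.65 against 0.23. The astrocyte and radial glia, oligodendrocyte precursor, and endothelial and mural lists were instead highest on C. By the probes that stand for the genes, Ncam1 and Dpysl4 did not follow, with their highest SVZ value on C. For Ncam1 this was 3.65 on C against 3.30 and 3.64 on A and B. Nor did Dpysl2, with C between A and B, or Gap43, with B at -6.30 and C at -6.38 against -0.28 on A. The dimmer Dpysl2 probe did have C lowest, at -3.15 against -1.39 and -2.72. Of the Ncam1 probes, only the sixth (0.90 against 1.62 and 1.89) and the eighth (-0.17 against 0.34 and 1.36) had C lowest. Hippocampal Sox2-GFP C was likewise low for the immature neuron list (-2.04 against -0.50 and -0.40) and for the astrocyte and radial glia list (-1.98 against 2.32 and 2.40), and high for the choroid plexus list (3.14 against 1.70 and 1.13). This array was also low for the mature neuron (-2.43 against -1.42 and -1.40) and myelin lists (-2.31 against 0.20 and 0.47). The endothelial and mural list was low there too (-3.55 against -0.43 and -0.25). Choroid plexus medians were higher on every hippocampal Sox2-GFP array (1.13 to 3.14) than on DCX-DsRed (-2.82 to -2.64) and SVZ arrays (-2.33 to -1.66). Of 13 such genes, 11 rose in hippocampal Sox2-GFP against DCX-DsRed cells, where 1.74% of all genes rose. In SVZ against hippocampal Sox2-GFP cells 6 fell, where 0.398% of all genes were called in either direction. The part of these other cells in the values of the set was not tested.

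**Figure D4:**
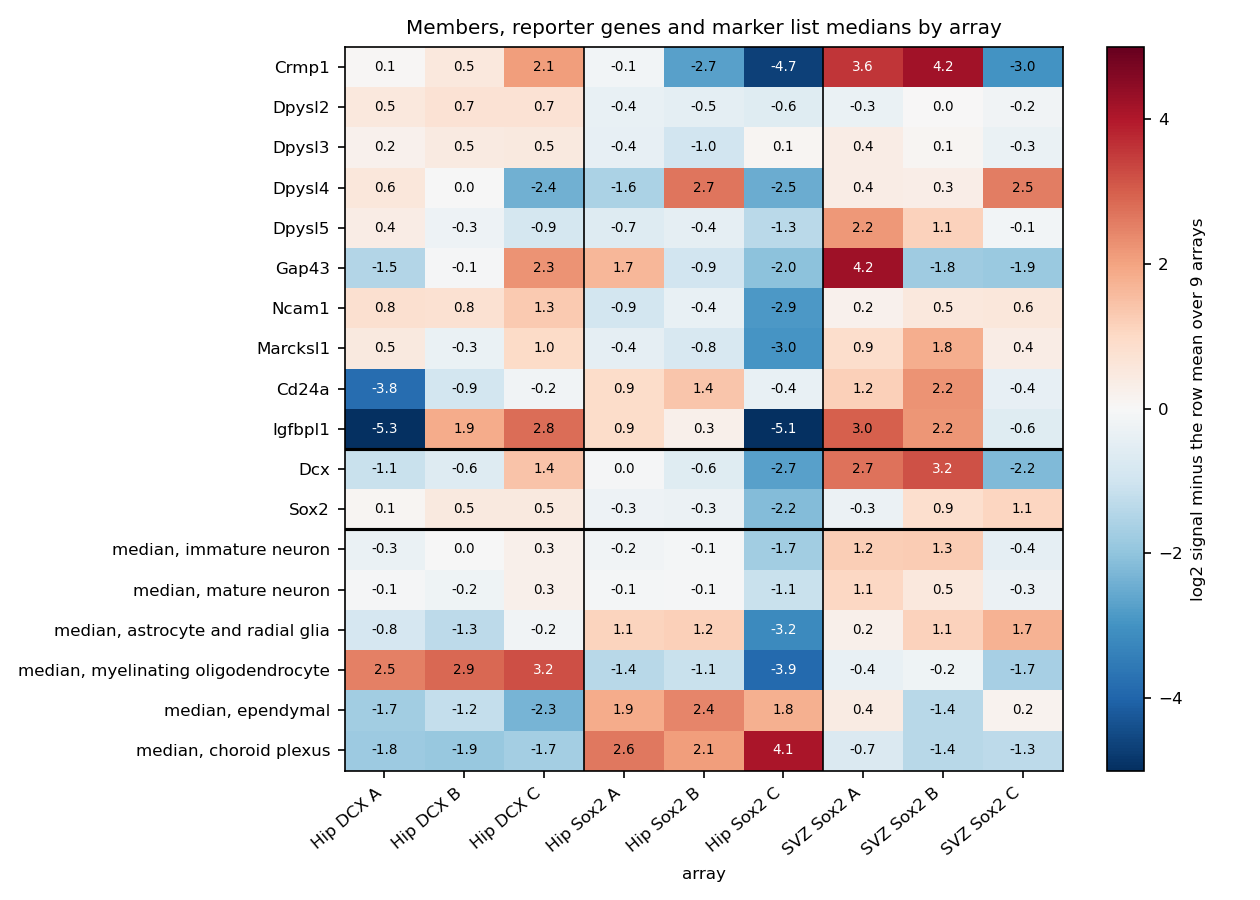
Deviation of each gene, of the 2 reporter genes and of 6 marker list medians from its own mean over the 9 arrays, in log2 units, by array. Red is above and blue below the row mean, the numbers give the deviation, and colours stop at 5 log2 units. Hippocampal Sox2-GFP C is blue for 9 of the 10 genes, and the myelin row is red on the DCX-DsRed arrays alone.

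As a description over 9 arrays that share slides and groups, the genes with the most similar pattern were all outside the set. Ncam1 followed Clasp2, a microtubule plus-end protein gene, at Pearson r = 0.997 and Rpf2 at 0.991 among 17341 ranked genes. Each had its lowest value on hippocampal Sox2-GFP C, Ncam1 at 0.22, Clasp2 at -5.70 and Rpf2 at -2.28. How far that array sets these r values was not tested. Dpysl2 followed Speer5-ps1 (0.986) and Pex5l (0.982), Dpysl3 Fam171a2 (0.962) and Zfp52 (0.936), and Dpysl5 Mpped2 (0.979) and Slc6a14 (0.970). Crmp1 followed Brf1 (0.953) and Zfp704 (0.948), Marcksl1 Tbl2 (0.955) and Fbxl16 (0.954), and Igfbpl1 Xkr6 (0.958) and Scyl2 (0.950). Dpysl4 followed Clec5a (0.943), Gap43 Kcnh3 and Hps6 (0.943 each), and Cd24a Dynlt1b (0.951) and Lin7c (0.937). Within the set the closest pair was Ncam1 and Marcksl1 (0.863), and Dpysl4 had no partner above 0.393. The best rank of one member in likeness to another, among all tested genes, was 163, that of Marcksl1 for Crmp1 (0.831).

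Partner genes of these proteins gave few calls. Of 21 measured partners of CRMPs (semaphorins, their receptors, kinases and proteins that bind CRMPs), 0 were called by limma in any comparison (1, 1 and 0 at an unadjusted p under 0.05). The smallest p in hippocampal Sox2-GFP minus DCX-DsRed cells was that of Nrp1, the semaphorin 3A receptor, at 1.17 (adjusted p = 0.2794). In SVZ minus hippocampal Sox2-GFP cells it was that of Kif5b, a kinesin heavy chain, at -1.18 (adjusted p = 0.4196), and in SVZ minus DCX-DsRed cells that of Mical1, a monooxygenase downstream of plexins, at 1.57 (adjusted p = 0.372). Their median differences were -0.23, 0.20 and -0.02. Of 14 genes around GAP43 and MARCKS (kinases, calmodulins and other substrates), 1 was called, against 3.17% of all genes. Prkcd, protein kinase C delta, rose 22.14-fold in hippocampal Sox2-GFP cells (1.43 ± 0.31 against -3.04 ± 0.62, SD, n = 3, limma adjusted p = 0.00757), and the call held in all 18 alternative fits.

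Among 19 measured genes of NCAM and L1 family adhesion and of polysialylation, Cntn2 was called. It encodes the adhesion protein TAG-1 of growing axons, which myelinating oligodendrocytes also make. It stood at 4.16 ± 0.42 in DCX-DsRed cells, -1.37 ± 0.61 in hippocampal Sox2-GFP cells and -0.18 ± 0.89 in SVZ cells (SD, n = 3 each). It was 46.04-fold lower in hippocampal Sox2-GFP cells (limma adjusted p = 0.003023) and 20.14-fold lower in SVZ cells (adjusted p = 0.0124) than in DCX-DsRed cells. The latter call was lost without DCX-DsRed A or B (adjusted p up to 0.05443). Of 15 myelin genes, 10 fell in hippocampal Sox2-GFP and 5 in SVZ against DCX-DsRed cells, where 1.43% and 1.00% of all genes fell, and 0 rose. Their list medians were 4.10 to 4.78 in DCX-DsRed, -2.31 to 0.47 in hippocampal Sox2-GFP and -0.09 to 1.36 in SVZ cells. Their part in the values of Cntn2, Ncam1 and Dpysl2 was not tested.

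Of 20 growth cone cytoskeleton genes, 3 fell in hippocampal Sox2-GFP against DCX-DsRed cells and 0 rose, where 1.43% of all genes fell and 1.74% rose. Called or not, the list was mixed in sign, with 9 of the 20 differences positive and a median of -0.21. An unadjusted p under 0.05 was reached by 8 genes, counting both directions. Stmn1, the tubulin-sequestering stathmin, was 22.05-fold lower (-0.79 ± 1.92 against 3.68 ± 0.33, limma adjusted p = 0.03949). Nav1, a microtubule-guiding neuron navigator, was 4.225-fold lower (0.70 ± 0.64 against 2.78 ± 0.22, adjusted p = 0.02835), and Mapt, the microtubule protein tau, 3.628-fold lower (2.70 ± 0.08 against 4.56 ± 0.15, adjusted p = 0.01822). The calls of Stmn1 and Nav1 held in 10 of 18 alternative fits each and that of Mapt in 13, with all signs kept. Without DCX-DsRed A, DCX-DsRed B or hippocampal Sox2-GFP A, all 3 calls were lost. Without DCX-DsRed C those of Stmn1 and Nav1 were lost, without hippocampal Sox2-GFP B those of Nav1 and Mapt, and without SVZ A or B that of Stmn1 (adjusted p up to 0.1305 for Stmn1, 0.2488 for Nav1 and 0.07747 for Mapt over all fits). In SVZ minus hippocampal Sox2-GFP cells 15 of the 20 differences were positive, with a median of 0.32, and 0 were called (5 at an unadjusted p under 0.05).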

How the data were processed

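Messenger RNA was measured on 9 one-colour arrays, 3 in each of 3 groups given by the sample titles. Per the file headers, Feature Extraction 9.5.1.1 made the deposited spot intensities, and the processed signal used here is background-subtracted and not normalized between arrays. Other deposited columns hold 0 and 1 flags. The submitters' processing notes name limma without a version. One file (DCX-DsRed A) held 47 altered symbols, so names were read from an intact one. Accessions named 22783 probes through RefSeq (GRCm38.p6), 6518 kept a current symbol, 3040 were updated from an older one and 8369 kept the file's name. No probe coordinates are printed, since no source used here gives their build.

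Of 43379 spots that are not controls, those with an outlier flag were left out. Spots were averaged to 41174 probes, 464 with no usable spot on some array were dropped, leaving 40710. From the log2 signal of each array its 75th percentile over these probes was subtracted. The probe with the highest mean stood for its gene. Differences were fitted with limma 3.58.1 (R 4.3.3, lmFit and eBayes, 6 residual degrees of freedom) on all 9 arrays, with Benjamini-Hochberg adjustment over all genes at a threshold of 0.05. The code was tested on simulated data. All 10 genes are named whatever their values. Of each other list up to 3 called genes with the largest difference are named, or the gene with the smallest p, and for each member the 2 most similar named genes over the arrays, of which 1 is not reported here. The members and lists were chosen with earlier results of these data known, so nothing here is independent of those results. Alternatives covered the background correction, normalization, filter, choice of probe, slide, replicate letter, groups fitted and each array left out. The number of arrays limits the precision.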

Additional observations from a re-analysis of the deposited data

How the results depend on the processing

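Over up to 18 alternative fits, 7, 6 and 7 of the 10 genes kept one sign in hippocampal Sox2-GFP minus DCX-DsRed (the first comparison), SVZ minus hippocampal Sox2-GFP (the second) and SVZ minus DCX-DsRed cells (the third). Against 0 in each comparison, limma called 1 gene of the set in the first with normexp (Dpysl2, -1.17, adjusted p = 0.03113) and with the mean of a gene's probes (Dpysl2, -1.99), 1 with each probe on its own, and 2 in both the first and the second with slide as a block. The shares of all genes called in the first comparison with normexp and with the mean of probes are not given here, so these single calls have no background beside them. By the probe that stands for the gene, each fit with 1 array left out called 0. Signs turned in the first comparison for Dpysl4 with the slide block (-1.31) and by single arrays (-1.40 to 1.17), for Gap43 without both C arrays of the Sox2-GFP groups (0.12) and by single arrays (-1.74 to 0.32), and for Igfbpl1 likewise (0.79, and -3.66 to 0.79). In the second they turned for Dpysl3 with the slide block (-0.12), for Dpysl4 without both C arrays (-0.20), and by single arrays for Gap43 (-1.38 to 1.69) and Cd24a (-0.26 to 1.07). In the third they turned for Gap43 with normexp (0.62), the slide block (0.46), without both C arrays (0.99) and by single arrays (-2.07 to 0.99), and by single arrays for Crmp1 (-0.59 to 3.0) and Igfbpl1 (-0.80 to 3.27). Over all genes, calls numbered 790, 99 and 385 in the 3 comparisons, 2025, 2129 and 794 with the slide block, and 251 to 773, 25 to 97 and 49 to 846 with 1 array left out. The second also gave 162 with normexp, 50 with probes well above background on all 9 arrays, 173 with the mean of probes, 164 with each probe on its own and 8 with only its own groups fitted. The cause of these changes was not tested. Replicate letters do not pair the arrays (correlation of deviations for shared letters -0.04 to 0.12), and the replicate block gave 489, 13 and 191 genes and 0 of the set, with the dimmer Dpysl2 probe at an adjusted p of 0.0481. Probe-wise fits and those without both C arrays were added after seeing the data. Signal near background limits Crmp1, Dpysl4, Gap43 and Igfbpl1.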
